A study of Mus musculus with 6 samples.

Results

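The 8 genes described here, Suds3, Glyr1, Morc4, Ganab, Emc4, Crebl2, Pls3 and Tpbgl, were among the most cleanly separated of the transcripts that were lower in livers carrying a hairpin against S1pr2. They were picked by symbol for falls of 2-fold or more with little spread between replicates, outside metabolism, and they are 8 of the 16426 genes listed in at least 1 library. Because these levels chose the genes, the levels are given as a description, without a test. Each was measured in 3 shRNA-S1PR2 livers and 3 shRNA-Scramble livers. The shRNA-S1PR2 mice had received an adeno-associated virus (AAV8) that expresses a short hairpin RNA (shRNA) against S1pr2, a receptor for the lipid sphingosine-1-phosphate. The shRNA-Scramble mice had received the same kind of virus with a scrambled hairpin. All 6 livers carry the labels mixed B6:sv129 background and 7 to 12 weeks of age. The series text adds that males drank dexamethasone, a synthetic glucocorticoid, at about 0.84 mg/kg for 7 days. No liver in this comparison was labelled as free of the virus or of dexamethasone, and the promoter that drives the hairpin is not given in the sources used here. Whole liver RNA was sequenced, so fewer cells of a type and less RNA per cell cannot be told apart. Separate animals are not stated, and p-values measure the spread between these samples only.

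The libraries held 16558775 to 17410160 expected counts, the number of fragments that RSEM assigns to a gene, and listed 14522 to 15106 genes each. FPKM is that number scaled per kilobase of transcript and to sequencing depth, and CPM is the count scaled to library size, with a correction for composition, and not to transcript length. A gene was called at a Benjamini-Hochberg adjusted p under 0.05 in the edgeR quasi-likelihood test over 12230 genes, of which 4.64% were called lower and 3.02% higher in shRNA-S1PR2 livers. In 16.8% of the genes tested every shRNA-S1PR2 liver lay below every shRNA-Scramble liver, and 2.11% also had a log2 fold change of -1 or lower. All 8 genes were called lower, did not overlap between groups and had a log2 fold change of -1 or lower, which follows from how they were chosen.

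The genes belong to unrelated machines of the cell. Suds3, Glyr1 and Morc4 act on chromatin, the packaging of DNA that sets which genes can be read. Ganab and Emc4 act in the endoplasmic reticulum (ER), where hepatocytes fold and load the many proteins they secrete. Pls3 bundles actin filaments, and Crebl2 is a small relative of the CREB transcription factors. A hairpin expressed from a virus is cut by the cell into a short RNA that guides an Argonaute protein to matching transcripts. Such guides, like microRNAs, can also lower transcripts that match only their seed, bases 2 to 8, mostly in the 3′ untranslated region (UTR).

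The 3′ UTRs of the 8 genes were therefore read for shared 7-mers. One 7-mer, TGGAGAA, occurred in the 3′ UTR of 7 of the 8 genes, all except Tpbgl, and 4 other 7-mers tied for the next place with 6 genes each. Of the other tested genes with a 3′ UTR record, 18.7% held it. It was picked from these same 8 genes as the most shared of 16384 possible 7-mers, so its count among them is no test. The records were the longest 3′ UTR of each gene in GENCODE M21 on GRCm38, a later build than the mm9 named in the submitters' processing notes. Matches of 6 genes are printed, each line giving 29 bases of the transcript strand, 5′ to 3′, with the 7-mer in capitals. They are shown because the comparison of 3′ UTRs turns on these letters; a match is a description and says nothing of binding.
Suds3, chr5:117092445-117092473, minus strand, 471 bases after the stop codon: ctccactttctTGGAGAAataaatgatat
Suds3, chr5:117091919-117091947, minus strand, 997 bases after the stop codon: gggcctcttatTGGAGAAatgactggtgt
Glyr1, chr16:5014127-5014155, minus strand, 1384 bases after the stop codon: ctttccttttaTGGAGAAaatgtgacact
Morc4, chrX:139822500-139822528, minus strand, 594 bases after the stop codon: tatgccttataTGGAGAAtctttgaatga
Emc4, chr2:112363215-112363243, minus strand, 87 bases after the stop codon: agtcatgcatgTGGAGAAgagcctcctgt
Crebl2, chr6:134856649-134856677, plus strand, 710 bases after the stop codon: aaatccatgctTGGAGAAtaattagccac
Pls3, chrX:75786598-75786626, minus strand, 152 bases after the stop codon: gtgacagccttTGGAGAAagcattttagt
Pls3, chrX:75786346-75786374, minus strand, 404 bases after the stop codon: gcagttctttcTGGAGAAtcctgctctga

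The transcript of S1pr2 itself, the intended target, held the 7-mer at 2 places in its 3′ UTR of 5111 bases and at 1 place in its coding sequence. In the third of tested genes outside the 8 with the longest 3′ UTRs, 36.4% held the 7-mer there. The 5111 bases come from the longest record, whereas the S1pr2 transcript that RSEM used had 2815 bases in all. Its coding sequence has 1059 bases, so by those lengths its 3′ UTR is no longer than 1833 bases. Among tested genes outside the 8 with 3′ UTRs above 694 and up to 1833 bases, 15.0% held the 7-mer. All S1pr2 matches printed here also lie in its RefSeq transcript record. The S1pr2 matches are shown so that the target can be set beside the 7 genes.
S1pr2 coding sequence, chr9:20968368-20968396, minus strand: cgccatcgtggTGGAGAAtcttctggtgc
S1pr2 3′ UTR, chr9:20967362-20967390, minus strand, 93 bases after the stop codon: tgctgcaggtcTGGAGAAactgaccacag
S1pr2 3′ UTR, chr9:20966322-20966350, minus strand, 1133 bases after the stop codon: gctaaatcctgTGGAGAAatagaaaaatc
Emc4 and Morc4 also held 1 copy each in the coding sequence, where the 29 bases with the copy at their middle cross an exon junction. Tpbgl held none anywhere in its transcript. The sequence of the hairpin is not given in the sources used here, so whether any of these letters pair with it was not tested. Among 1738 mature mouse microRNAs of the RefSeq table, 0 had bases 2 to 8 complementary to TGGAGAA. Shorter or shifted matches to microRNAs were not looked for, so pairing with microRNAs was not tested further.

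The target came first as a check of the labels. S1pr2 (Entrez gene 14739) had 60, 36 and 38 expected counts in shRNA-S1PR2 livers 1 to 3 and 72, 84 and 110 in shRNA-Scramble livers 1 to 3. In FPKM these were 1.23, 0.77 and 0.80 in shRNA-S1PR2 livers and 1.51, 1.70 and 2.24 in shRNA-Scramble livers. The groups did not overlap, and liver 1 of the shRNA-S1PR2 group kept the most. The log2 fold change was -1.12 (SE 0.24, edgeR adjusted p = 0.0301), with 46.0% of the level remaining. For S1pr2 CPM the exact permutation test, two-sided, gave p = 0.1, the smallest that 20 assignments of 3 against 3 livers allow. The call was lost without shRNA-S1PR2 liver 2 (adjusted p = 0.117) or 3 (0.101) and without shRNA-Scramble liver 2 (0.0785) or 3 (0.0962), and on log2(FPKM + 0.1) (limma adjusted p = 0.0677) and log2(FPKM + 1) (0.0684).

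Suds3 (Entrez gene 71954), which encodes a core subunit of the Sin3 histone deacetylase complex, had 544, 454 and 554 expected counts in shRNA-S1PR2 livers 1 to 3, against 1555, 1380 and 1493 in shRNA-Scramble livers 1 to 3. Its FPKM were 13.11, 11.35 and 13.73 in shRNA-S1PR2 livers and 38.19, 32.69 and 35.70 in shRNA-Scramble livers. The highest shRNA-S1PR2 liver stood at 42.0% of the lowest shRNA-Scramble liver in FPKM. Suds3 averaged 29.3 ± 2.76 CPM in shRNA-S1PR2 livers and 90.5 ± 4.70 CPM in shRNA-Scramble livers (SD, n = 3 each), a log2 fold change of -1.63, with 32.3% remaining.

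Glyr1 (Entrez gene 74022) encodes a reader of histone H3 methylated at lysine 36 and a cofactor of the demethylase Kdm1b. It had 933, 730 and 806 expected counts in shRNA-S1PR2 livers 1 to 3, against 1554, 1471 and 1533 in shRNA-Scramble livers 1 to 3. Its FPKM were 16.00, 13.01 and 14.28 in shRNA-S1PR2 livers and 27.16, 24.96 and 26.11 in shRNA-Scramble livers. Of the 258 genes that were non-overlapping and lower by 2-fold or more, Glyr1 ranked first by separation, the difference of the group means over their pooled SD on log2 CPM, although its fall was the smallest of the 8. It averaged 46.4 ± 1.44 CPM in shRNA-S1PR2 livers and 93.2 ± 1.87 CPM in shRNA-Scramble livers (SD, n = 3 each), a log2 fold change of -1.01. In FPKM 55.3% remained, so on that scale the fall was under 2-fold.

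Morc4 (Entrez gene 75746), a member of the MORC family of chromatin ATPases, was the least abundant of the 8 and fell furthest. It had 85, 63 and 109 expected counts in shRNA-S1PR2 livers 1 to 3, against 440, 331 and 423 in shRNA-Scramble livers 1 to 3. In FPKM it stood at 1.17, 0.91 and 1.57 in shRNA-S1PR2 livers and at 6.24, 4.49 and 5.86 in shRNA-Scramble livers. No liver of one group came near the other, but its coefficient of variation (CV, SD over mean CPM) among shRNA-S1PR2 livers, 27.8%, was the largest of the 8. Morc4 averaged 4.85 ± 1.35 CPM in shRNA-S1PR2 livers and 24.4 ± 3.35 CPM in shRNA-Scramble livers (SD, n = 3 each), a log2 fold change of -2.33, with 19.9% remaining.

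Ganab (Entrez gene 14376) encodes the catalytic alpha subunit of glucosidase II, which trims glucose from N-glycans on newly made proteins in the ER. Its expected counts, the highest of the 8, were 1173, 1076 and 1125 in shRNA-S1PR2 livers 1 to 3, against 3104, 3015 and 2692 in shRNA-Scramble livers 1 to 3. In FPKM the gene had 17.21, 16.32 and 16.93 in shRNA-S1PR2 livers and 46.37, 43.48 and 39.18 in shRNA-Scramble livers. The 3 shRNA-S1PR2 livers lay close together and shRNA-Scramble liver 3 was the lowest of its group. Ganab averaged 63.7 ± 3.78 CPM in shRNA-S1PR2 livers and 180 ± 15.1 CPM in shRNA-Scramble livers (SD, n = 3 each), a log2 fold change of -1.50, with 35.3% remaining.

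Emc4 (Entrez gene 68032) encodes a subunit of the ER membrane protein complex, which inserts transmembrane segments into the ER membrane. Its counts were fractional in all 6 libraries, as happens when fragments are shared between genes, so its level is uncertain. It had 415.61, 364.34 and 352.49 expected counts in shRNA-S1PR2 livers 1 to 3, against 743.21, 739.21 and 827.94 in shRNA-Scramble livers 1 to 3. The FPKM were 25.28, 22.94 and 22.08 in shRNA-S1PR2 livers and 46.01, 44.30 and 50.01 in shRNA-Scramble livers. Emc4 stood second by separation, and its groups did not overlap. It averaged 21.3 ± 0.873 CPM in shRNA-S1PR2 livers and 47.2 ± 2.53 CPM in shRNA-Scramble livers (SD, n = 3 each), a log2 fold change of -1.15, with 45.2% remaining in CPM and 50.1% in FPKM.

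Crebl2 (Entrez gene 232430), the CREB-like bZIP gene, had 232, 211 and 248 expected counts in shRNA-S1PR2 livers 1 to 3, against 586, 607 and 614 in shRNA-Scramble livers 1 to 3. It had 5.30, 4.99 and 5.83 FPKM in shRNA-S1PR2 livers and 13.62, 13.66 and 13.93 FPKM in shRNA-Scramble livers. The shRNA-Scramble livers were nearly level with each other, and the shRNA-S1PR2 livers were all well below them. Crebl2 averaged 13.1 ± 1.40 CPM in shRNA-S1PR2 livers and 36.9 ± 0.952 CPM in shRNA-Scramble livers (SD, n = 3 each), a log2 fold change of -1.50, with 35.3% remaining.

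Pls3 (Entrez gene 102866) encodes plastin 3, an actin-bundling protein. It had 518, 472 and 616 expected counts in shRNA-S1PR2 livers 1 to 3, against 1372, 1313 and 1451 in shRNA-Scramble livers 1 to 3. In FPKM, Pls3 stood at 9.51, 8.96 and 11.67 in shRNA-S1PR2 livers and at 25.68, 23.77 and 26.44 in shRNA-Scramble livers. Liver 3 of the shRNA-S1PR2 group was the highest of its group and still below every shRNA-Scramble liver. Pls3 averaged 30.4 ± 5.10 CPM in shRNA-S1PR2 livers and 84.5 ± 3.08 CPM in shRNA-Scramble livers (SD, n = 3 each), a log2 fold change of -1.48, with 35.9% remaining.

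Tpbgl (Entrez gene 100503386), named for its likeness to the trophoblast glycoprotein gene Tpbg, had 421, 275 and 359 expected counts in shRNA-S1PR2 livers 1 to 3, against 1187, 1092 and 1213 in shRNA-Scramble livers 1 to 3. It had 8.01, 5.42 and 7.03 FPKM in shRNA-S1PR2 livers and 22.98, 20.47 and 22.92 FPKM in shRNA-Scramble livers. Liver 2 was the lowest in each group, and the groups did not overlap. Tpbgl averaged 19.7 ± 2.50 CPM in shRNA-S1PR2 livers and 71.4 ± 2.97 CPM in shRNA-Scramble livers (SD, n = 3 each), a log2 fold change of -1.85, with 27.7% remaining. Only Morc4 kept a smaller share among the 8. Tpbgl was the only one of them without the 7-mer, and whether the size of a fall goes with the 7-mer among the 8 was not tested.

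**Figure D1:**
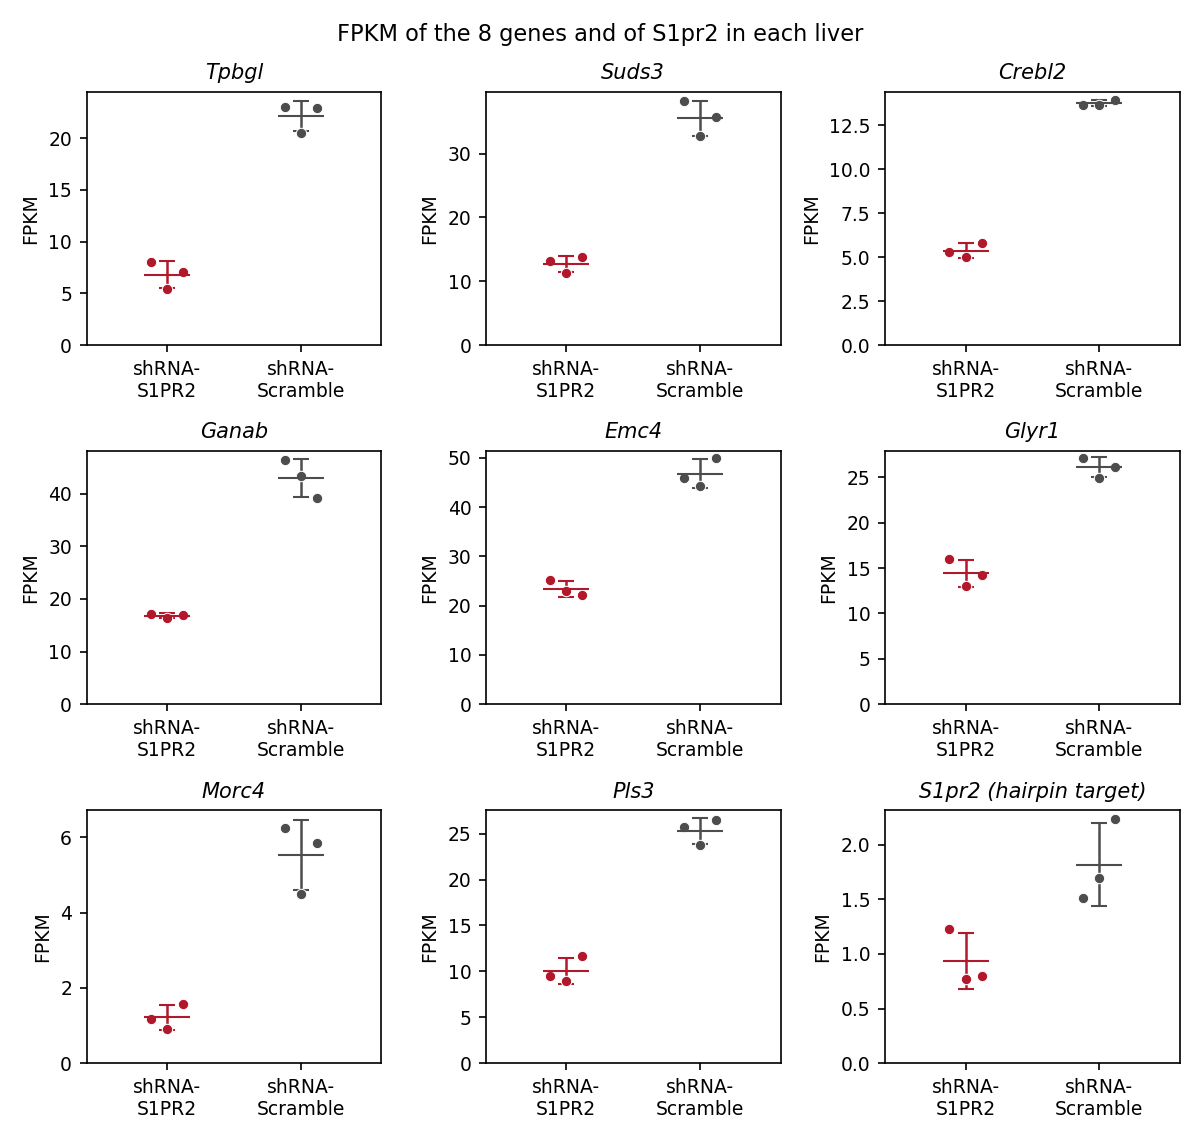
FPKM of the 8 genes and of S1pr2 in each shRNA-S1PR2 liver (left of each panel) and shRNA-Scramble liver (right); points are livers, long bars the mean and whiskers the SD (n = 3 each), and every vertical axis starts at 0. In all 9 panels each shRNA-S1PR2 liver lies below each shRNA-Scramble liver, with Morc4 the lowest of the 8 at 1.22 ± 0.332 FPKM in shRNA-S1PR2 livers and 5.53 ± 0.920 FPKM in shRNA-Scramble livers.

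As the plot of FPKM by liver shows, the 8 genes spanned a wide range of levels in both groups. In FPKM, the scale per length, Emc4 (46.8 ± 2.93), Ganab (43.0 ± 3.62) and Suds3 (35.5 ± 2.75) were the most abundant in shRNA-Scramble livers, and Crebl2 (13.7 ± 0.169) and Morc4 the least (SD, n = 3 each). The median log2 fold change of the 8 was -1.50, against 0.01 over all genes tested. All of them except Glyr1 kept a smaller share of their level than S1pr2 did, both in CPM and in FPKM, a difference that was not tested. The 2-fold limit of the choice lies close to the fall of S1pr2 (46.0% remaining), so this order and the median largely follow from the choice. For Emc4 the order turned without shRNA-S1PR2 liver 1 (log2 fold change -1.14 for Emc4 and -1.29 for S1pr2) and without shRNA-Scramble liver 1 (-1.17 for Emc4 and -1.25 for S1pr2). Their CV was 3.10 to 27.8% (median 10.1%) among shRNA-S1PR2 livers and 2.01 to 13.7% (median 4.69%) among shRNA-Scramble livers, against medians over all genes tested of 12.5% among shRNA-S1PR2 livers and 12.7% among shRNA-Scramble livers. Low spread was part of the choice.

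Which shRNA-S1PR2 liver was lowest depended on the scaling. In FPKM liver 2 was the lowest for 7 of the 8, and liver 3 for Emc4, whereas in CPM liver 1 was the lowest for 4 genes, liver 2 for 3 and liver 3 for 1. The scaling factors were 1.154, 0.987 and 1.027 for shRNA-S1PR2 livers 1 to 3 and 0.968, 0.924 and 0.957 for shRNA-Scramble livers 1 to 3. Every shRNA-S1PR2 factor lay above every shRNA-Scramble factor, and a larger factor gives a lower CPM for the same count and library size. The mean transcript length that RSEM used for a gene varied between libraries by at most 1.82% (Morc4) and not at all for Tpbgl, Crebl2 and Emc4, which had 1 transcript each.

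At the 2-fold limit of the choice, Il6ra (-1.002) and Trim13 (-1.001) lay just inside it and Mat1a (-0.999) and Apip (-0.998) just outside among non-overlapping genes, in log2 fold change. Il6ra encodes a receptor for interleukin-6 and Mat1a the liver enzyme that makes S-adenosylmethionine. Trim13 held the 7-mer in its 3′ UTR, and Il6ra, Mat1a and Apip did not.

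Genes that work with the 8 or are related to them mostly showed no change in the test. Of 95 listed partners and relatives 94 were found and 90 tested; 0 were called higher and 2 lower (2.22%, against 4.64% of all genes tested), with a median log2 fold change of 0.05. The called pair lay in the N-glycan list of Ganab. Without shRNA-S1PR2 liver 2 none of the 90 was called. With upper-quartile scaling Arid4b, Kdm1b and Mogs were called higher. At an unadjusted edgeR p under 0.05, 12 of the 90 lay higher and 6 lower, with Uggt1 and Edem1 among the 6, against 11.5% of all genes tested higher and 12.9% lower. The DESeq2 Wald test called 1 partner higher (Lcp1) and 4 lower (Actn4, Edem1, Lman1 and Uggt1), against 5.04% of all genes higher and 6.91% lower. Missing the threshold does not show that a gene was alike in both groups.

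Partners of the chromatin genes gave 0 calls. For Suds3 all 19 listed Sin3 complex genes were tested, with a median log2 fold change of 0.12. The scaffold gene Sin3a averaged 27.7 ± 3.47 CPM in shRNA-S1PR2 livers and 23.1 ± 2.16 CPM in shRNA-Scramble livers (SD, n = 3 each), or 0.26 in log2 fold change (SE 0.13, edgeR adjusted p = 0.253). For Glyr1, the 13 genes of histone H3 lysine 36 methylation and its readers had a median of 0.03. Its partner Kdm1b stood at 0.30 on the log2 scale (SE 0.09, edgeR adjusted p = 0.0936), with fractional counts in all 6 libraries; it is named for its place beside Glyr1, after its value was seen. For Morc4, 6 of 8 listed MORC and HUSH silencing genes were tested, with a median of 0.06.

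In the N-glycan and calnexin list of Ganab, 2 of 14 tested genes fell, 0 rose and the other 12 were not called, with a median log2 fold change of -0.06. Uggt1 encodes the folding sensor that puts glucose back on misfolded glycoproteins, the step that glucosidase II reverses. It had 59.2, 60.4 and 58.1 CPM in shRNA-S1PR2 livers 1 to 3 and 101, 108 and 87.6 CPM in shRNA-Scramble livers 1 to 3, without overlap. The Uggt1 log2 fold change was -0.74 (SE 0.11, edgeR adjusted p = 0.00983), a call lost without shRNA-S1PR2 liver 2. Edem1, which directs misfolded glycoproteins to degradation, had 101, 105 and 115 CPM in shRNA-S1PR2 livers and 159, 180 and 159 CPM in shRNA-Scramble livers. Its groups did not overlap either, and the log2 fold change was -0.63 (SE 0.12, edgeR adjusted p = 0.0192), a call lost without shRNA-S1PR2 liver 2 and without shRNA-Scramble liver 2 or 3. Prkcsh, which encodes the beta subunit that holds Ganab in the ER, averaged 88.9 ± 8.54 CPM in shRNA-S1PR2 livers and 94.9 ± 2.37 CPM in shRNA-Scramble livers (SD, n = 3 each), or -0.09 in log2 fold change (SE 0.11, edgeR adjusted p = 0.656).

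None of the other ER membrane protein complex subunits was called. Their log2 fold changes were -0.31 for Emc1, -0.22 for Emc2, -0.02 for Emc3, -0.12 for Mmgt1, 0.42 for Mmgt2, -0.19 for Emc6, -0.20 for Emc7, -0.16 for Emc8, -0.06 for Emc9 and -0.24 for Emc10, with edgeR adjusted p between 0.216 and 0.933. The list median was -0.17 with 9 of 10 values below 0, but on log2(FPKM + 0.1) it was -0.02 with 6 of 10 below 0. Emc4 itself lay well outside the range of these subunits.

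The relatives of Crebl2, Pls3 and Tpbgl gave 0 calls as well. The 17 tested CREB and ATF factors and coactivators had a median log2 fold change of 0.17. For the plastins, Pls1 had 52.5, 47.7 and 46.1 CPM in shRNA-S1PR2 livers and 44.1, 23.4 and 17.2 CPM in shRNA-Scramble livers, or 0.79 in log2 fold change (SE 0.33, edgeR adjusted p = 0.213). Lcp1, the plastin of blood cells, averaged 114 ± 14.9 CPM in shRNA-S1PR2 livers and 84.7 ± 8.14 CPM in shRNA-Scramble livers (SD, n = 3 each), or 0.43 in log2 fold change (SE 0.13, edgeR adjusted p = 0.0937). Both lay above 0 and Pls3 below it, and the difference between the plastins was not tested. Among 11 tested plastins and actin cross-linkers the median was 0.25. The cross-linker gene Espn, at 0.524 ± 0.311 CPM in shRNA-S1PR2 livers and 1.08 ± 0.130 CPM in shRNA-Scramble livers (SD, n = 3 each), had the one partner value as low as that of Glyr1, -1.01 (SE 0.47, edgeR adjusted p = 0.232), and is named after its value was seen. Tpbg averaged 0.071 CPM in shRNA-S1PR2 livers and 0.102 CPM in shRNA-Scramble livers and was too low to test.

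**Figure D2:**
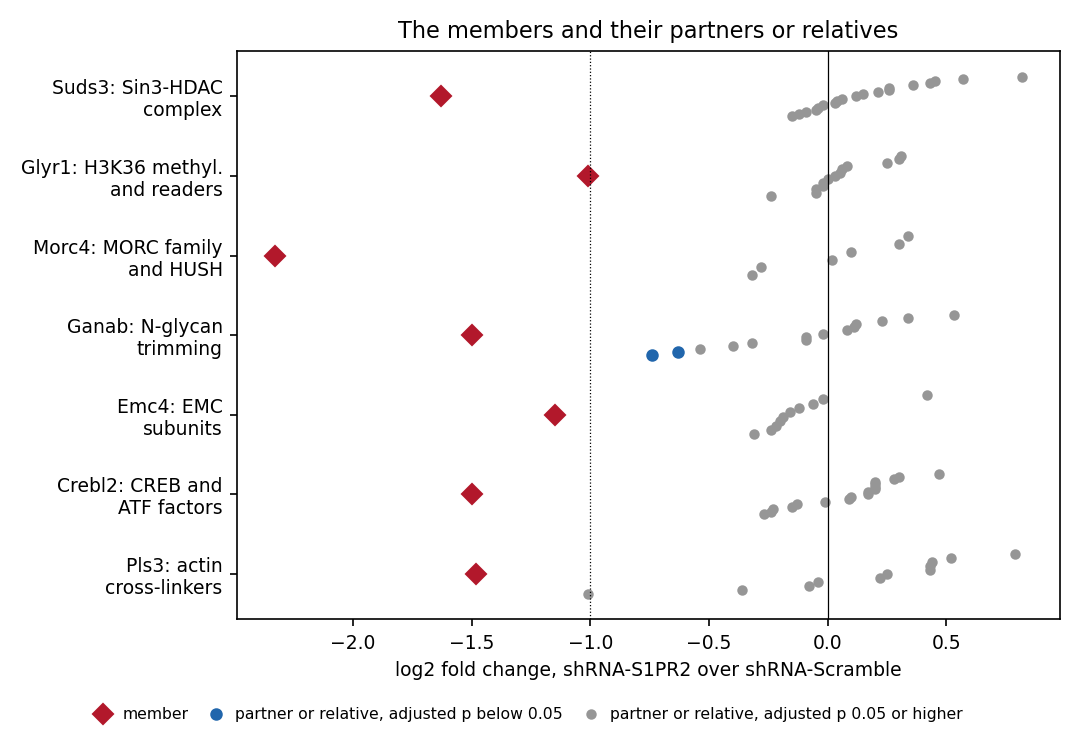
Log2 fold change, shRNA-S1PR2 over shRNA-Scramble, of 7 of the 8 genes (red diamonds) and of the tested partners or relatives of each (circles, 1 per gene, spread vertically only to separate them); blue circles had an edgeR adjusted p below 0.05. The diamonds lie at -1.01 or lower, the 2 blue circles are Uggt1 (-0.74) and Edem1 (-0.63), and Tpbgl is not drawn because its relative Tpbg was not tested.

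The plot of partners shows each of the 7 genes apart from its own list, except that Espn reached the value of Glyr1 in another list. That gap follows from how the 8 were chosen and is not a test of them.

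The transcripts whose CPM followed the mean of the 8 most closely over the 6 livers were Exoc5 (Pearson r 0.9987), Ergic2 (0.9981), Spcs2 (0.9968), Cask (0.9962) and Sumo2 (0.9951), among genes with at least 5 CPM. These r values describe likeness only, since the 6 points form a pair of separate groups of 3. Exoc5, which encodes a subunit of the exocyst that tethers secretory vesicles, had 17.6, 17.3 and 18.5 CPM in shRNA-S1PR2 livers 1 to 3 and 29.8, 30.2 and 30.0 CPM in shRNA-Scramble livers 1 to 3. Spcs2, a signal peptidase subunit gene of the ER, had 94.3, 94.1 and 106 CPM in shRNA-S1PR2 livers and 178, 175 and 190 CPM in shRNA-Scramble livers. The log2 fold changes were -0.75 for Exoc5, -0.74 for Ergic2, -0.88 for Spcs2, -0.68 for Cask and -0.71 for Sumo2, all smaller falls than those of the 8. The 3′ UTRs of Exoc5, Ergic2, Cask and Sumo2 held the 7-mer and that of Spcs2 did not. Those of Exoc5 (10071 bases), Cask (5091), Ergic2 (2598) and Spcs2 (2128) are long, and that of Sumo2 has 605 bases. In the third of tested genes outside the 8 with the longest 3′ UTRs, 36.4% held the 7-mer. The 5 genes were picked for likeness to the 8 from which the 7-mer was taken, so this count is no test.

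Genes outside the 8 that held TGGAGAA in the 3′ UTR were called lower more often than genes that did not hold it. Among 12150 other tested genes with a 3′ UTR record, 18.7% held it. Of the 2277 with it, 232 were called lower (10.2%) and 40 higher (1.76%), with a median log2 fold change of -0.08. Of the 9873 without it, 327 were called lower (3.31%) and 326 higher (3.30%), with a median of 0.03. The 7-mer was chosen because the 8 genes share it, and these shares carry no p-value. Without shRNA-S1PR2 liver 2 the shares called lower were 2.98% with the 7-mer and 0.744% without it, and on log2(FPKM + 0.1) they were 4.57% with it and 1.27% without it. In all 15 settings compared the share was higher with the 7-mer, by 2.38 to 4.6 times under the alternatives.

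The difference was seen in each shRNA-S1PR2 liver. Relative to the mean of the shRNA-Scramble livers in log2 CPM, the median of genes with the 7-mer minus that of genes without it was -0.093, -0.141 and -0.114 in shRNA-S1PR2 livers 1 to 3. The same differences were 0.028, 0.000 and -0.022 in shRNA-Scramble livers 1 to 3, so the groups did not overlap. Other 7-mers were not compared liver by liver, so how many would separate the groups in the same way was not tested. All 3 shRNA-S1PR2 values are taken against the same shRNA-Scramble mean, so they are not independent of each other. The scrambled livers take part in their own mean, which draws their values towards 0.

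The copy number, the strand, the region and the next base went with different shares. With 1 copy in the 3′ UTR 9.39% of 1875 genes were called lower, with 2 copies 13.6% of 317, and with 3 or more copies 15.3% of 85. The median log2 fold changes of these classes were -0.08 with 1 copy, -0.12 with 2 and -0.06 with 3 or more, so they did not follow the same order. The median 3′ UTR length was 2232, 3348 and 5016 bases with 1, 2 and 3 or more copies, and copy number was not split by length. The reverse complement, TTCTCCA, was held by 2225 genes, of which 4.67% were called lower, close to the 4.60% of all 12150. Where the 7-mer lay in the coding sequence and not in the 3′ UTR, 4.47% of 3914 genes were called lower, and where it lay in neither, 2.55% of 5959. Followed by A, as it is in Suds3, Glyr1 and one of the matches of Pls3, the 7-mer went with 13.4% of 837 genes called lower. The share was 11.1% of 479 genes when it was followed by C, and 8.26% of 799 when followed by G, as in Emc4. It was 9.84% of 508 when followed by T, as in Crebl2, Morc4 and the other match of Pls3. A gene with more than 1 copy can be in more than 1 of these classes, and the differences between them were not tested.

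**Figure D3:**
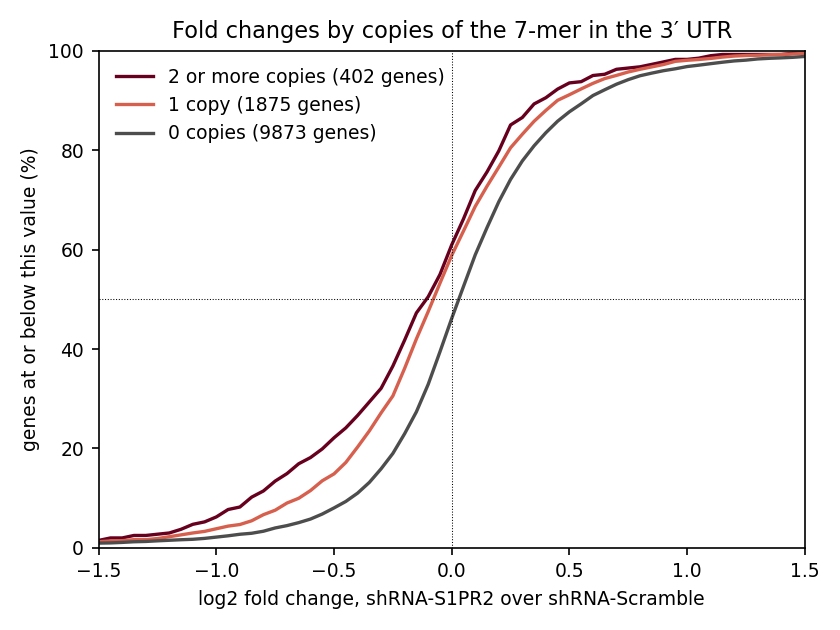
Cumulative share of genes (vertical axis, % of the class) at or below each log2 fold change, shRNA-S1PR2 over shRNA-Scramble (horizontal axis), for genes with 2 or more, 1 or 0 copies of the 7-mer in the 3′ UTR, the 8 genes left out. Over the range drawn the curves with copies lie left of the curve for the 9873 genes without one, whose median is 0.03.

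In the cumulative plot 22.1% of the genes with 2 or more copies, 14.9% of those with 1 copy and 8.03% of those with 0 copies lie at or below -0.50. Long 3′ UTRs hold more 7-mers, so the shares were also taken within 3 classes of 3′ UTR length with about the same number of genes each. The 7-mer was held by 4.79% of the short class (up to 694 bases), 15.0% of the middle class (up to 1833 bases) and 36.4% of the long class. Of the 8 genes, Emc4 is in the short class with 308 bases, Crebl2 in the long class with 2981 bases and the other 6 in the middle class. The share called lower was 14.9% with the 7-mer and 2.64% without it in the short class, 11.2% with and 3.37% without it in the middle class, and 9.15% with and 4.23% without it in the long class. Length still differed within the classes. The median 3′ UTR was 483 bases with the 7-mer and 327 without it in the short class. It was 1274 with and 1151 without in the middle class, and 3298 with and 2720 without in the long class.

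**Figure D4:**
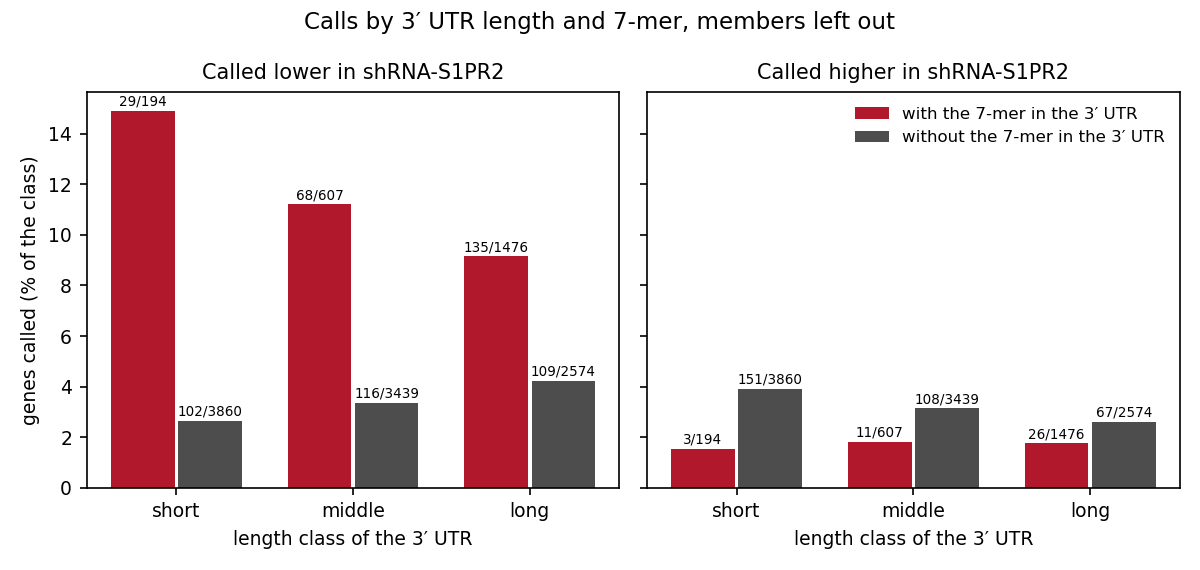
Share of genes called lower (left panel) and higher (right panel) in shRNA-S1PR2 livers, in % of each class, by class of 3′ UTR length, with (red) and without (grey) the 7-mer in the 3′ UTR; the 8 genes are left out and the numbers over the bars are genes called of genes in the class. In every class the red bar is the taller one for lower calls and the shorter one for higher calls.

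The plot by length shows the widest gap in the short class, where 29 of 194 genes with the 7-mer were called lower. TGGAGAA was also set beside every other 7-mer. By the share of holders called lower it ranked 5 of 13877 7-mers held by at least 200 genes, and 2 of 8225 held by at least 1000, after GGAGAAA, which overlaps it by 6 bases. Of the genes called lower outside the 8, 41.5% held TGGAGAA, and of those called higher, 10.9%. Among the 90 partners and relatives 15 held it (16.7%), with a median log2 fold change of -0.13, against 0.08 for those without it. Neither Uggt1 nor Edem1 held it in the 3′ UTR. How much of the fall of the 7 genes goes with the 7-mer, with lower S1pr2 or with something else was not tested, and the design, with 1 hairpin, cannot tell them apart.

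The cell make-up of the livers was read from marker lists. Albumin and the other 9 hepatocyte markers were abundant in every library, as the tissue label requires, with a summed level of 88477 to 129640 CPM in shRNA-S1PR2 livers and 134314 to 167523 CPM in shRNA-Scramble livers, and 0 of 10 called. Most of that sum is Alb, at 56835 to 85603 CPM in shRNA-S1PR2 livers and 103256 to 129028 CPM in shRNA-Scramble livers (log2 fold change -0.59, SE 0.25, edgeR adjusted p = 0.198). The other 9 summed to 31642 to 45619 CPM in shRNA-S1PR2 livers and 31057 to 49032 CPM in shRNA-Scramble livers, so the groups overlapped. Endothelial markers summed to 323 to 363 CPM in shRNA-S1PR2 livers and 258 to 292 CPM in shRNA-Scramble livers. Of these, 4 of 10 were called higher (Cdh5, Kdr, Tie1 and Tek) and 0 lower, against 3.02% of all genes tested called higher and 4.64% lower. Among the other types 0 markers were called, with sums of 182 to 355 CPM in shRNA-S1PR2 livers and 129 to 232 CPM in shRNA-Scramble livers for Kupffer cells and macrophages (10 tested), and of 324 to 598 CPM in shRNA-S1PR2 livers and 212 to 546 CPM in shRNA-Scramble livers for stellate cells and fibroblasts (10 tested). Cholangiocyte markers (7 tested) summed to 55.4 to 110 CPM in shRNA-S1PR2 livers and 35.5 to 77.7 CPM in shRNA-Scramble livers. Lymphocyte and neutrophil markers (2 of 10 high enough to test) summed to 5.45 to 8.65 CPM in shRNA-S1PR2 livers and 1.41 to 4.67 CPM in shRNA-Scramble livers, with Ms4a1 at 0 in 5 of the 6 libraries. At an unadjusted edgeR p under 0.05, 7 of 10 endothelial, 1 hepatocyte, 1 Kupffer cell and 1 cholangiocyte marker lay higher and 3 hepatocyte markers lower. The DESeq2 Wald test called 5 endothelial, 1 hepatocyte and 1 Kupffer cell marker higher and 3 hepatocyte markers lower. By direction, 9 of 10 hepatocyte markers had a log2 fold change below 0 (median -0.26). Below 0 were also 1 of 10 endothelial (median 0.42), 0 of 10 Kupffer cell (0.54) and 2 of 10 stellate cell markers (0.32). For cholangiocytes it was 4 of 7 (-0.05), and for lymphocytes and neutrophils 0 of 2 (0.99). The part of these shifts in the levels of the 8 genes was not tested.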

How the data were processed

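RNA of 3 shRNA-S1PR2 and 3 shRNA-Scramble mouse livers was read on a DNB platform, per the labels' protocols. HISAT2, Bowtie2, RSEM 1.2.12, DESeq2 and mm9 are named, without roles, in the submitters' processing notes; for strand handling and read filters the sources used here give nothing. Per the file headers, each deposited table gives an RSEM expected count per gene, unscaled, and an FPKM, scaled by the authors to length and depth. Between 24.5 and 25.2% of genes listed had fractional expected counts, as shared fragments give; paralogs and genes on opposite strands may share counts.

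Expected counts were rounded, genes not listed were set to 0, and genes were filtered with filterByExpr (minimum count 10) and scaled by TMM in edgeR 4.0.16 (R 4.3.3). The test was edgeR's quasi-likelihood F test (robust, two-sided, group as the only factor) with Benjamini-Hochberg adjustment over 12230 genes. The 3′ UTR comparison used the longest GENCODE M21 record per gene (GRCm38) and was added after the data were seen; mm9 coordinates were not used. Alternatives were other scalings and filters, the DESeq2 1.42.0 Wald test, limma 3.58.1 on log2(FPKM + pseudocount), with 0.1 or 1 added (mean FPKM at least 0.1), the replicate number as a block, and each liver left out. The fits were tested on simulated data.

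The 8 genes and the lists of partners and markers were chosen with earlier results of these data known. Named besides the 8 were S1pr2, set partners, up to 4 called genes of each partner list, the 2 genes on each side of the 2-fold limit and the 5 genes most like the mean of the 8. One of the sequence matches and one marker value are not reported here.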

Additional observations from a re-analysis of the deposited data

How the results depend on the processing

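The 8 genes kept their direction in all 112 values under 14 alternatives, of which 105 were at 2-fold or more. The 7 smaller falls belonged to Glyr1 and Emc4. The 8 were chosen for clean falls in these same livers, so the kept direction largely follows from the choice. On log2 FPKM, where the median of all genes tested was 0.157 with a pseudocount of 0.1 and 0.102 with 1, against 0.012 in the edgeR test, Glyr1 reached -0.82 and Morc4 -1.56. In these fits 254 and 243 genes were called lower, and 570 were called higher with a pseudocount of 0.1. S1pr2 then had a log2 fold change of -0.90 (limma adjusted p = 0.0677) or -0.54 (0.0684), and the 7-mer difference of medians was -0.074 with a pseudocount of 1, against -0.116 in the edgeR test. The share of calls that were lower was 60.6% with TMM, 48.5% with upper-quartile factors and 30.8% on FPKM; upper-quartile factors called 3 partners higher. The DESeq2 Wald test called 616 genes and 1 partner higher and 4 partners lower. Leaving out 1 liver gave 153 to 377 genes lower, 78 to 266 higher, 0 to 2 partners lower, 0 to 2 higher (Mlec and Pls1 without shRNA-Scramble liver 1), an S1pr2 change of -1.29 to -0.95 and a 7-mer difference of -0.127 to -0.104; the lowest gene counts came without shRNA-S1PR2 liver 2. Same-numbered livers did not deviate together (Pearson r -0.06, 0.22 and -0.12 across genes), so numbers pair no livers; with the replicate block 466 genes were lower, 342 higher, and S1pr2 changed by -1.11 (adjusted p = 0.0684). S1pr2 rested on 36 to 110 counts a liver, which limits the precision of its value.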
